A study of Rattus norvegicus with 20 samples.

Results

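The genes described here are 39 genes of the interferon response and of the immunoproteasome, measured in the livers of rats given tricresyl phosphate (TCP). They were taken from a list of names that covers the factors carrying the interferon signal, the sensors of viral RNA, the ISG15 conjugation system, antiviral effectors, guanylate-binding proteins and the machinery of antigen processing. Of the 39, 37 were matched to a probe set that names 1 gene, out of 14217 genes measured in all, and where a gene had several, the one with the highest mean over the 20 arrays stood for it. Xaf1 and Gbp5 had no such probe set and have no value here. Ddx58, which encodes the sensor RIG-I, was found under the array's older name Rig1.

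TCP is an organophosphate ester that is added to plastics, hydraulic fluids and engine oils and used to slow burning. Male rats of the Harlan Sprague-Dawley strain were dosed by oral gavage once a day on 4 consecutive days, and all groups, controls included, received the corn oil vehicle. The control group (0 mg/kg) held 5 rats, and the groups given 62.3, 124.5, 248.6, 497.3 and 994.6 mg/kg body weight held 3 rats each. RNA from pieces of the left liver lobe was measured on 1 Affymetrix array per rat, and the sources used here give no ages. The values are log2 expression values, so a difference of 1 is a doubling, and a level of one gene is not set against that of another because probe sets differ in brightness. A liver piece holds many cell types, and in bulk RNA more cells of a type and more RNA per cell cannot be told apart.

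Interferons are secreted proteins that tell cells of a viral infection or of tissue damage. Type I interferons signal through JAK kinases to the factor ISGF3, which contains STAT2 and IRF9 and binds interferon-stimulated response elements (ISRE) in the promoters of its target genes, while interferon gamma acts mainly through gamma-activated sites (GAS). Hepatocytes and the liver's resident macrophages, the Kupffer cells, both carry interferon receptors and respond with a shared core of genes. The immunoproteasome is a form of the proteasome in which interferon-induced subunits replace the constitutive catalytic ones, and the TAP transporter carries the resulting peptides to major histocompatibility complex (MHC) class I molecules.

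Promoter sequences are shown because many of the listed genes hold the letters of the ISRE. The genes were listed for their part in the interferon response, so a high share of these letters follows from the choice and is no added support for it. RefSeq windows of 300 bases (250 before to 50 after the gene start, rat build GRCr8) were found for 30 of the 37 measured genes. They were missing for Ddx58, Dhx58, Isg15, Usp18, Mx2, Ifit1 and Ifit2. The ISRE core, GAAA followed by any 2 bases and GAAA and searched on both strands, occurred in 20 of the 30 windows (66.7%), against 3.92% of all 33469 rat windows. The GAS letters, TTC followed by any 3 bases and GAA, occurred in 9 of 30 (30.0%), against 8.87% of all windows. The letters are given 5′ to 3′ on the strand of the gene, with the ISRE core in capitals, and the strand that carries GAAA differs between genes.
Irf7, chr1:205800063-205800112, minus strand: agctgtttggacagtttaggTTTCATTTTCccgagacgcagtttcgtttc
Ifit3, chr1:241527262-241527311, plus strand: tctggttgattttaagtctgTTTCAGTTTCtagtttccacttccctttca
Oas1a, chr12:41330405-41330460, plus strand: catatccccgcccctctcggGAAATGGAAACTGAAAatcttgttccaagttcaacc
Oas1b, chr12:41395876-41395931, minus strand: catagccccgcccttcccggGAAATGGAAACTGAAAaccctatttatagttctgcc
Isg20, chr1:142239947-142239996, plus strand: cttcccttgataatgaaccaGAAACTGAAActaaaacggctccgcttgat
Lgals3bp, chr10:104127869-104127918, minus strand: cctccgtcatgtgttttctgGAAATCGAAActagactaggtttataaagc
Gbp2, chr2:234005676-234005725, plus strand: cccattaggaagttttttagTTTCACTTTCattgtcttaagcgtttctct
Psmb10, chr19:50743293-50743385, minus strand: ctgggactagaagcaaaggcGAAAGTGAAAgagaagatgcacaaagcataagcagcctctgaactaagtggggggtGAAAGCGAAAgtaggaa
Tap1, chr20:4668635-4668684, minus strand: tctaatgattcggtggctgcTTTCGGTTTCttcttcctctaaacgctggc
Rsad2, chr6:48788238-48788287, minus strand: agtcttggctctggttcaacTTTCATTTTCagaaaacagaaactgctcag

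Oas1a and Oas1b, neighbouring copies of the same ancestral gene, carry the same run of overlapping cores, and Psmb10 carries separate cores. The windows of Tap1 and Psmb9 overlap on opposite strands, because the genes start back to back. At 994.6 mg/kg 9 of the 20 genes with a core and 4 of the 10 without one were called higher, and the median log2 change was 0.58 with and 0.52 without it. Irf7, Ifit3, Oas1a, Isg20 and Lgals3bp are genes with a core that were called higher, and Rsad2 is one with a core whose change was 0.0047. No count of these letters was tested, and a match is not a measurement of binding.

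Several arrays stood apart and bear on all that follows. Replicate 1 of 994.6 mg/kg was the highest of all 20 arrays for 15.6% of all genes and replicate 2 of 124.5 mg/kg for 16.1%, against 1.90% to 7% in the other 18 arrays. Among the listed genes the control rats themselves differed: control replicate 4 was the highest control for 25 of 37 genes and control replicate 2 the lowest for 26. Replicate 4 exceeded replicate 2 in 35 of 37, by a median of 0.65 on the log2 scale. How many of all genes showed this order among the controls is not given here. The median SD over the 5 control arrays was 0.29 for the listed genes against 0.12 for all genes. GAPDH read at its 3' end minus GAPDH read at its 5' end, a sign of RNA integrity, ran from 1.13 to 1.56 in control arrays and from 0.61 to 0.84 at 994.6 mg/kg. It ran from 0.87 to 1.11 at 62.3 mg/kg, from 0.86 to 1.10 at 248.6 mg/kg and from 0.71 to 0.90 at 497.3 mg/kg. At 124.5 mg/kg it ran from 0.76 to 2.58, with replicate 2 the highest of all arrays. Apart from that array, it was lower in every treated rat than in every control, so it moved with treatment and not with the top dose alone. Its part in the results was not tested beyond refitting with it as a covariate.

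**Figure D1:**
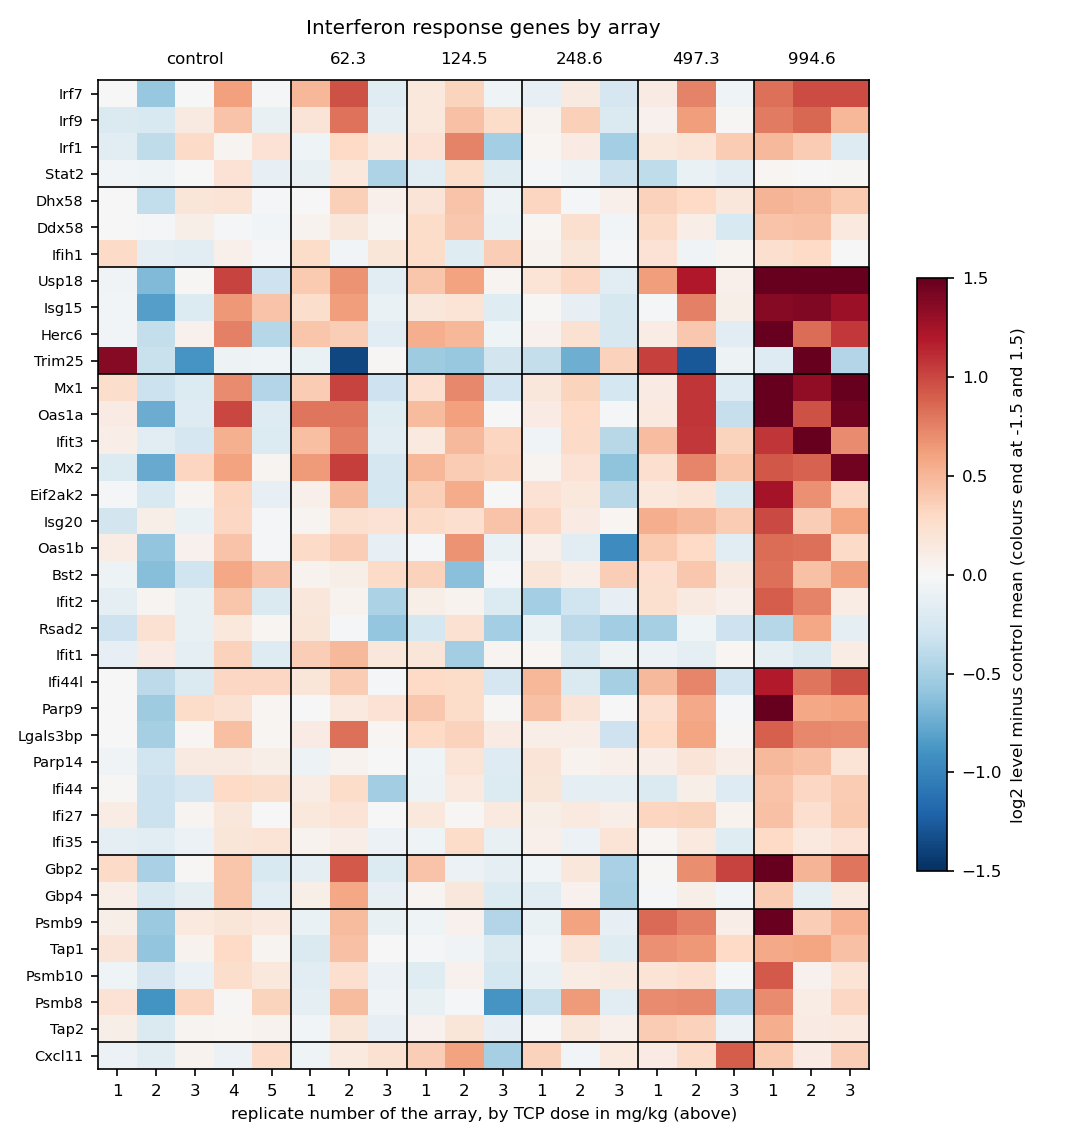
Log2 level of each of the 37 measured genes minus its control mean (colour), by gene (rows, grouped by role) and array (columns, grouped by TCP dose in mg/kg). The 3 arrays of 994.6 mg/kg are red for most genes. Control replicate 4 is mostly red and control replicate 2 mostly blue, and replicate 2 of 62.3 and of 497.3 mg/kg is mostly red as well.

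Nearly all of the listed genes had a higher mean at 994.6 mg/kg than in control, and many passed the test. Of the 37 measured genes 17 rose and 0 fell at a Benjamini-Hochberg adjusted p under 0.05 (limma, adjusted over all 14217 genes), a share of 45.9%, while 4.47% of all genes were called, 2.50% as higher and 1.96% as lower. The median log2 change was 0.59 for the listed genes and -0.0071 for all genes. The change was above 0 in 36 of 37, and in 21 of 37 every array of 994.6 mg/kg lay above every control array, which 6.91% of all genes did. The deubiquitinase gene Usp18, the GTPase gene Mx1, the oligoadenylate synthetase gene Oas1a and the ubiquitin-like modifier gene Isg15 had the largest changes, 3.11-fold, 2.76-fold, 2.62-fold and 2.55-fold.

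Most of the calls were lost without 1 array, but leaving it out also leaves fewer rats at the top dose and calls fewer of all genes. A lost call therefore does not by itself show that a change rested on that array. Without replicate 1 of 994.6 mg/kg, 3 of the 37 genes (Usp18, Isg15 and Ifit3) were called higher and 0 lower, while 1.22% of all genes were called, 0.717% as higher. The direction did not rest on it: 36 of 37 changes stayed above 0 and the median change was 0.48, although 31 of 37 changes were larger with the array than without. Leaving out any 1 of the control or 994.6 mg/kg arrays gave between 3 and 19 called genes, the highest without control replicate 4. Only Usp18 and Isg15 were called whichever array was left out, and both were also called in each other setting tried. Among the left-out arrays, Herc6, Mx1, Ifi44l, Parp9 and Isg20 lost the call only without replicate 1, and Ifit3 only without replicate 2. Ifi44l and Parp9 also lost it with the GAPDH covariate, and Isg20 and Parp9 with only the groups compared. The remaining 9 lost it without at least 3 different arrays, and 9, 8, 13, 17 and 9 of the 17 calls were kept without control replicates 1 to 5. With the GAPDH difference as a covariate 9 genes were called, with array weights 26, and with only the control and 994.6 mg/kg groups fitted 10. The shares of all genes called under these settings are not given here.

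**Figure D2:**
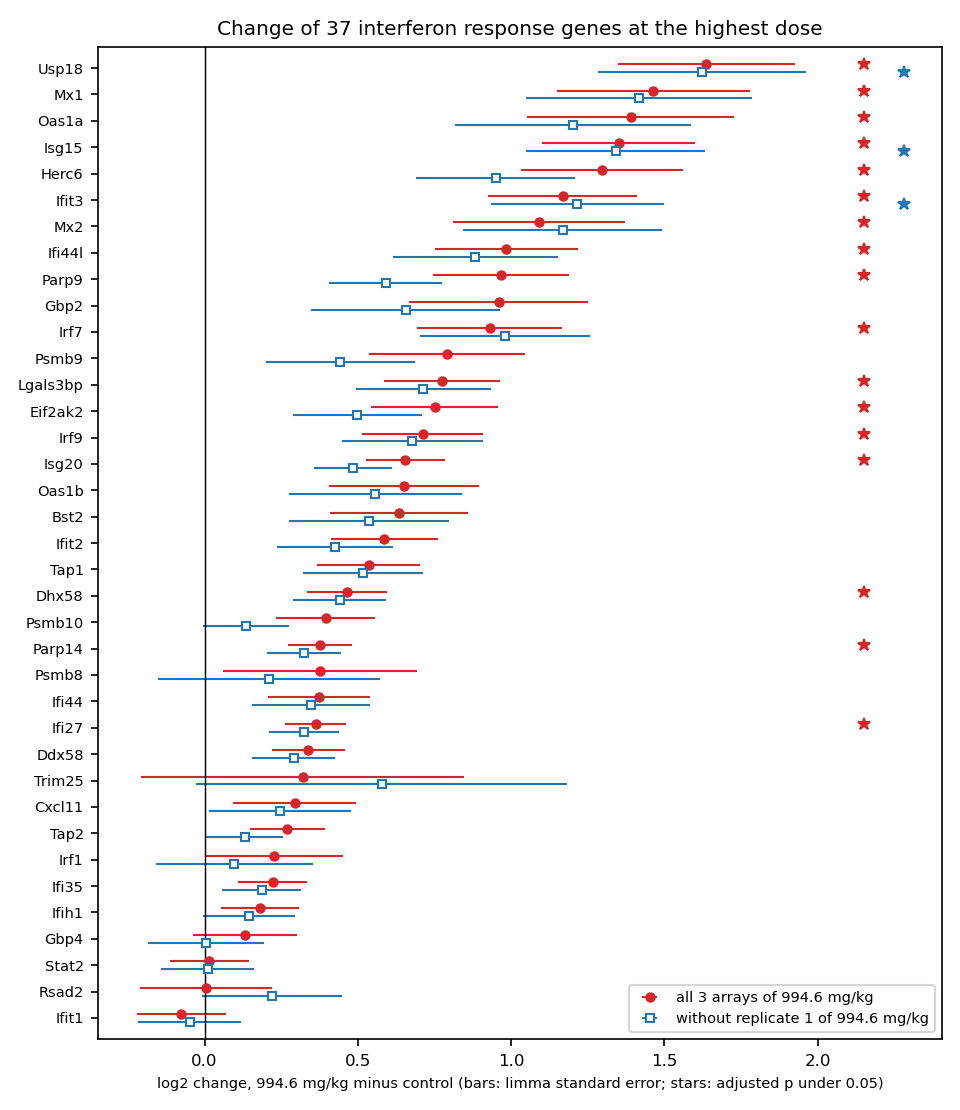
Log2 change at 994.6 mg/kg minus control (horizontal axis) of the 37 measured genes (vertical axis), with all 3 arrays (red circles) and without replicate 1 (open blue squares). Bars are limma standard errors and stars mark an adjusted p under 0.05. Usp18, Isg15 and Ifit3 have both stars, and the points of Parp9, Psmb9 and Herc6 move furthest to the left without the array.

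Among the factors that carry the signal, Irf7 and Irf9 rose, and Stat2 and Irf1 were not called. IRF7 is the interferon-induced factor that amplifies type I interferon production. Irf7 lay at 9.08, 8.51, 9.07, 9.69 and 9.05 in control replicates 1 to 5 and at 9.91, 10.06 and 10.06 at 994.6 mg/kg. The groups did not overlap, and the change was 0.93 ± 0.24 (adjusted p = 0.0309). At the lower doses Irf7 ranged from 8.83 to 10.03, and replicate 2 of 62.3 mg/kg, at 10.03, lay among the arrays of the top dose. Irf9 encodes the DNA-binding subunit of ISGF3. Its levels were 8.21, 8.18, 8.55, 8.84 and 8.31 in control and 9.20, 9.27 and 8.92 at 994.6 mg/kg, a change of 0.71 ± 0.20 (adjusted p = 0.0463), and every array of that dose lay above the highest control. A further probe set of Irf9 changed by 0.74. Stat2, which also encodes a subunit of ISGF3, was not called, at 10.32, 10.30, 10.37, 10.58 and 10.24 in control and 10.39, 10.37 and 10.38 at 994.6 mg/kg (0.016 ± 0.13), and the sign of its change turned with quantile normalization. Irf1, a factor induced by interferon gamma, changed by 0.23 ± 0.23 with overlapping groups. Without replicate 1, Irf7 changed by 0.98 ± 0.28 and Irf9 by 0.68 ± 0.23, with adjusted p = 0.0984 and 0.191.

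Of the RNA sensors, Dhx58 rose and Ddx58 and Ifih1 were not called. DHX58 (LGP2) modulates the related sensors RIG-I and MDA5. Dhx58 was at 6.89, 6.52, 7.06, 7.08 and 6.86 in control and at 7.39, 7.37 and 7.28 at 994.6 mg/kg, with no overlap and a change of 0.46 ± 0.13 (adjusted p = 0.047). Its 3 probe sets changed by 0.46, 0.45 and 0.35, and the one used may also bind related transcripts by its design. Ddx58, which senses short double-stranded viral RNA, lay above every control array at 994.6 mg/kg, with a change of 0.34 ± 0.12 (adjusted p = 0.113). Ifih1, the gene of MDA5, ran from 6.86 to 7.32 in control and from 7.03 to 7.33 at 994.6 mg/kg, so the groups overlapped. The sign of its change (0.18 ± 0.13) turned with the covariate.

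Of the 4 genes of the ISG15 system 3 rose, among them Usp18 and Isg15, whose calls held in every setting tried. ISG15 is a ubiquitin-like protein that is joined to other proteins after interferon, and USP18 both removes it and dampens signalling at the type I interferon receptor. Usp18 lay at 8.60, 7.99, 8.67, 9.67 and 8.34 in control, at 9.05, 9.33 and 8.50 at 62.3 mg/kg, at 9.07, 9.26 and 8.69 at 124.5 mg/kg and at 8.85, 8.96 and 8.49 at 248.6 mg/kg. It lay at 9.28, 9.85 and 8.73 at 497.3 mg/kg and at 10.32, 10.24 and 10.30 at 994.6 mg/kg. The 3 arrays of the top dose were within 0.1 of each other and above the other 17 arrays, while control replicate 4 was above every array of the 3 lowest doses. The change at 994.6 mg/kg was 1.64 ± 0.29 (adjusted p = 0.00323), and 1.62 ± 0.34 without replicate 1 (adjusted p = 0.0207).

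Isg15 itself lay at 8.43, 7.63, 8.26, 9.11 and 8.89 in control, and at 8.22 to 9.22 over the 12 arrays of the lower doses. At 994.6 mg/kg it lay at 9.84, 9.86 and 9.75, above the other 17 arrays. The change was 1.35 ± 0.25 (adjusted p = 0.00432), and 1.34 ± 0.29 without replicate 1 (adjusted p = 0.0258). HERC6 is the main ligase that attaches ISG15 to its targets in mice. Herc6 lay at 6.04, 5.72, 6.14, 6.83 and 5.65 in control and at 8.06, 6.91 and 7.14 at 994.6 mg/kg, with replicate 1 well above the others. Its change went from 1.30 ± 0.26 to 0.95 ± 0.26 without that array, and adjusted p moved from 0.00807 to 0.0872. Trim25, a ubiquitin ligase that acts on RIG-I, scattered widely, from 8.84 to 11.1 in control and from 9.29 to 11.3 at 994.6 mg/kg (0.32 ± 0.53). That change turned to -0.32 without replicate 2 of 994.6 mg/kg.

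**Figure D3:**
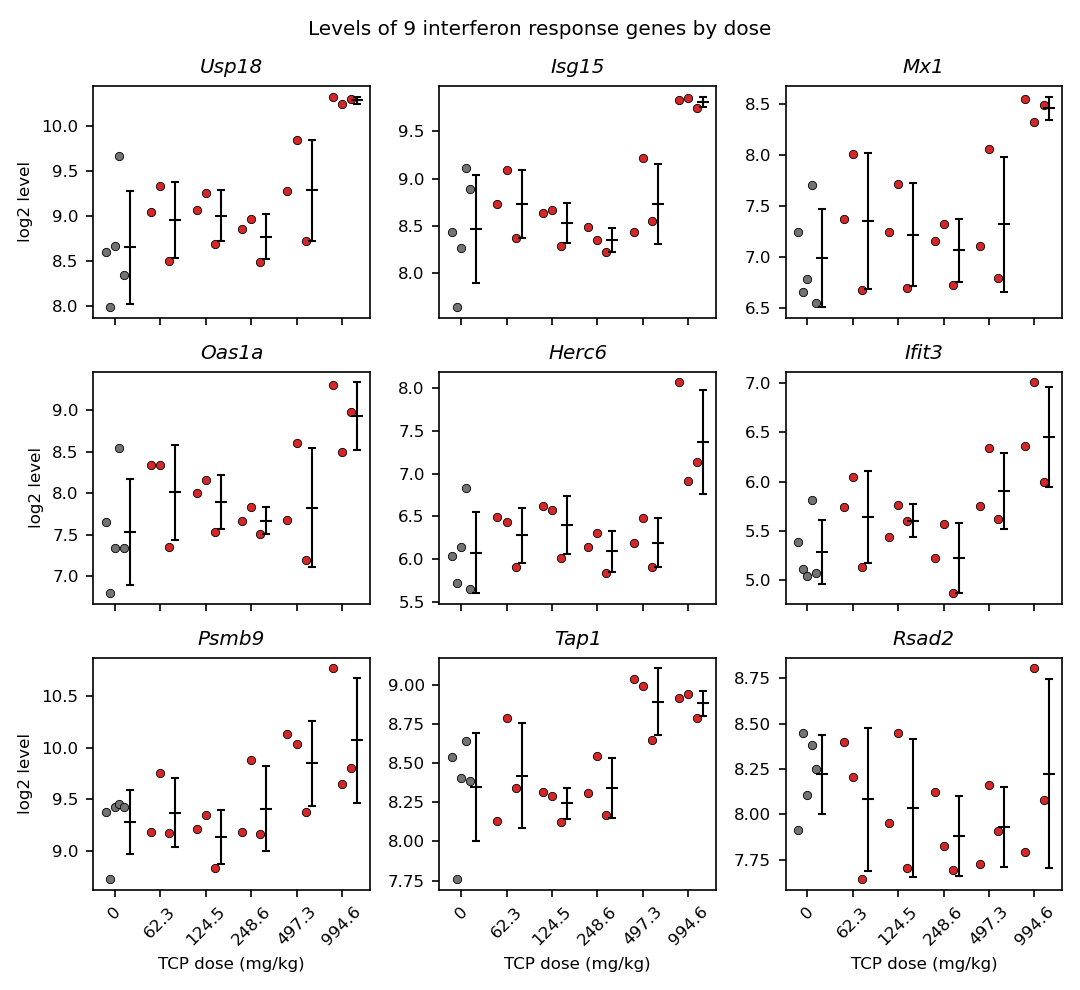
Log2 level (vertical axis) by TCP dose in mg/kg (horizontal axis) of 9 genes, 1 point per array in replicate order from left to right, with the group mean and SD beside the points. Usp18 and Isg15 sit in a tight cluster at 994.6 mg/kg above all other arrays, Tap1 and Psmb9 are already up in replicates 1 and 2 of 497.3 mg/kg, and Rsad2 does not separate the doses.

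Of the 11 antiviral effectors 6 rose: Mx1, Mx2, Oas1a, Ifit3, Eif2ak2 and Isg20. The other 5 (Oas1b, Ifit1, Ifit2, Rsad2 and Bst2) were not called. MX1 and MX2 are dynamin-like GTPases that block viral replication. Mx1 lay at 7.25, 6.66, 6.78, 7.70 and 6.56 in control and at 8.54, 8.32 and 8.49 at 994.6 mg/kg. The lower doses ranged from 6.68 to 8.06, and each of the arrays of 994.6 mg/kg lay above them and above control. The change was 1.46 ± 0.31 (adjusted p = 0.0115), and 1.42 ± 0.37 without replicate 1 (adjusted p = 0.0688), so its size held and its call did not. Mx2 lay at 6.97, 6.43, 7.50, 7.79 and 7.22 in control and at 8.12, 8.07 and 8.63 at 994.6 mg/kg, a change of 1.09 ± 0.28 (adjusted p = 0.0309). Its other probe set changed by 1.34, and replicate 2 of 62.3 mg/kg, at 8.22, was above 2 of the 3 arrays of the top dose.

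OAS1 enzymes make the oligoadenylates that switch on RNase L. Oas1a lay at 7.66, 6.80, 7.34, 8.54 and 7.34 in control and at 9.30, 8.49 and 8.98 at 994.6 mg/kg, so control replicate 4 lay above replicate 2 of the top dose. The change was 1.39 ± 0.34 (adjusted p = 0.0237) and 1.20 ± 0.38 without replicate 1 (adjusted p = 0.16). Oas1b lay at 5.05, 4.35, 5.002, 5.36 and 4.92 in control and at 5.78, 5.77 and 5.22 at 994.6 mg/kg, a change of 0.65 ± 0.24 (adjusted p = 0.141). These are related copies, and whether a probe set of one reads the other was not tested, so the split between them is uncertain.

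IFIT proteins bind viral RNA that lacks the host's cap marks, and the members differed. Ifit3 lay at 5.38, 5.12, 5.04, 5.82 and 5.08 in control and at 6.36, 7.01 and 6.001 at 994.6 mg/kg, with no overlap and a change of 1.17 ± 0.24 (adjusted p = 0.00926). Replicate 2 was its highest array there, and the change without replicate 1 was 1.22 ± 0.28 (adjusted p = 0.0391). Without replicate 2 it was not called (0.89 ± 0.25, adjusted p = 0.0521). Ifit2 lay at 8.94, 9.12, 8.97, 9.49 and 8.86 in control and at 9.98, 9.82 and 9.18 at 994.6 mg/kg, a change of 0.59 ± 0.17 (adjusted p = 0.0611), and it was called in 8 of 18 settings tried. Ifit1 was not called, at 6.71, 6.95, 6.69, 7.17 and 6.64 in control and 6.70, 6.62 and 6.95 at 994.6 mg/kg (-0.076 ± 0.15), the only listed gene with a change below 0.

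Eif2ak2 encodes PKR, the kinase that stops translation on double-stranded RNA. It lay at 7.78, 7.57, 7.83, 8.12 and 7.67 in control and at 9.05, 8.48 and 8.10 at 994.6 mg/kg, and the groups touched, since replicate 3 lay below control replicate 4. The change of 0.75 ± 0.21 (adjusted p = 0.0464) went to 0.50 ± 0.21 (adjusted p = 0.332) without replicate 1. Isg20, an exonuclease that degrades single-stranded RNA, lay at 6.06, 6.43, 6.24, 6.66 and 6.33 in control and at 7.34, 6.72 and 6.94 at 994.6 mg/kg. The groups did not overlap, and the change of 0.66 ± 0.13 had an adjusted p = 0.00647, which became 0.0709 without replicate 1 (0.48 ± 0.13). Bst2 (tetherin), which holds budding virions at the cell surface, changed by 0.63 ± 0.23 (adjusted p = 0.119) with overlapping groups. Rsad2 (viperin), among the most inducible interferon targets in many cells, lay at 7.91, 8.45, 8.11, 8.38 and 8.25 in control and at 7.79, 8.80 and 8.08 at 994.6 mg/kg. Its change of 0.0047 ± 0.21 turned sign with quantile normalization and with median centring.

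Among the other interferon-induced genes 5 of 7 rose: Ifi44l, Parp9, Lgals3bp, Parp14 and Ifi27. Ifi44l lay at 7.25, 6.86, 7.04, 7.56 and 7.56 in control and at 8.44, 8.06 and 8.22 at 994.6 mg/kg, a change of 0.98 ± 0.23 (adjusted p = 0.0209). Its neighbour Ifi44 also lay above every control array at the top dose, with a change of 0.37 ± 0.17, and was not called (adjusted p = 0.226). Parp9 and Parp14 are ADP-ribosyltransferase family members that act on interferon signalling. Parp9 lay at 9.48, 8.96, 9.77, 9.72 and 9.52 in control and at 11.21, 10.07 and 10.09 at 994.6 mg/kg. Replicate 1 stood more than 1 log2 unit above the others, and the change of 0.97 ± 0.22 (adjusted p = 0.0173) became 0.59 ± 0.18 without it (adjusted p = 0.146). Parp14 lay at 8.84, 8.58, 9.02, 9.02 and 8.98 in control and at 9.37, 9.33 and 9.09 at 994.6 mg/kg, a small change of 0.38 ± 0.10 (adjusted p = 0.0464).

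Lgals3bp, a secreted glycoprotein that binds galectins, lay at 8.20, 7.69, 8.22, 8.65 and 8.22 in control and at 9.10, 8.92 and 8.91 at 994.6 mg/kg, a change of 0.78 ± 0.19 (adjusted p = 0.024). Ifi27, a small mitochondrial protein gene, lay at 13.61, 13.17, 13.54, 13.67 and 13.50 in control and at 13.94, 13.75 and 13.89 at 994.6 mg/kg. Its change was small, 0.36 ± 0.10 (adjusted p = 0.0445). The control SD of Ifi27 was 0.19, against a median of 0.29 for the listed genes and 0.12 for all genes. Ifi35 changed by 0.22 ± 0.11 and was not called. Of these genes none kept its call without replicate 1, when the changes were 0.88 for Ifi44l, 0.71 for Lgals3bp, 0.32 for Parp14 and 0.32 for Ifi27.

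Guanylate-binding proteins are GTPases that attack intracellular pathogens and are strongly induced by interferon gamma. Of the 2 measured members 0 were called by limma at 994.6 mg/kg and 1 was higher at an unadjusted p under 0.05, as were 9.97% of all genes. Gbp2 lay at 7.64, 6.87, 7.38, 7.77 and 7.12 in control and at 8.92, 7.87 and 8.15 at 994.6 mg/kg, with every array of that dose above control and a change of 0.96 ± 0.29 (adjusted p = 0.0652). Gbp4 changed by 0.13 ± 0.17 with overlapping groups. The chemokine gene Cxcl11, which draws activated T cells through CXCR3, lay at 9.89, 9.82, 10.03, 9.89 and 10.27 in control and at 10.37, 10.10 and 10.36 at 994.6 mg/kg (0.29 ± 0.20). It was not called (adjusted p = 0.474), and its highest array was replicate 3 of 497.3 mg/kg, at 10.89.

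None of the 5 immunoproteasome and TAP genes passed the test at 994.6 mg/kg, although all 5 changes were above 0 and 4 had an unadjusted p under 0.05 (limma). Of all genes 9.97% were higher and 8.6% lower at that threshold. Psmb9 encodes the interferon-induced subunit β1i. It lay at 9.37, 8.73, 9.43, 9.46 and 9.43 in control and at 10.77, 9.65 and 9.80 at 994.6 mg/kg. The arrays of 994.6 mg/kg were all above control, with replicate 1 about 1 log2 unit above the others, and the change was 0.79 ± 0.25 (adjusted p = 0.0809), or 0.44 ± 0.24 without that array. Psmb8, the subunit β5i, lay at 10.45, 9.34, 10.56, 10.25 and 10.56 in control and at 10.94, 10.34 and 10.54 at 994.6 mg/kg (0.38 ± 0.32), with overlap. Psmb10, the subunit β2i, lay at 9.13, 8.93, 9.09, 9.45 and 9.34 in control and at 10.10, 9.26 and 9.39 at 994.6 mg/kg. Only replicate 1 stood clear of control, and the change went from 0.39 ± 0.16 to 0.13 ± 0.14 without it.

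TAP1 and TAP2 form the peptide transporter. Tap1 lay at 8.54, 7.76, 8.40, 8.64 and 8.39 in control and at 8.92, 8.94 and 8.79 at 994.6 mg/kg, with no overlap. Its change of 0.54 ± 0.17 (adjusted p = 0.0756) was 0.52 ± 0.20 without replicate 1, so it rested little on that array. A second, dim Tap1 probe set changed by -0.048. Tap2 lay at 8.08, 7.78, 8.03, 8.02 and 8.04 in control and at 8.54, 8.11 and 8.13 at 994.6 mg/kg (0.27 ± 0.12). Control replicate 2 was the lowest control array for Psmb8, Psmb9, Psmb10, Tap1 and Tap2 alike.

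At 497.3 mg/kg no listed gene was called in either direction (0 of 37 by limma, against 0.732% of all genes), and 7 were higher and 0 lower at an unadjusted p under 0.05. At that threshold 7.28% of all genes were higher and 4.88% lower. The changes were above 0 in 31 of 37 and their median was 0.25, against 0.0070 for all genes. Every array of 497.3 mg/kg lay above every control array in 2 of the 37 genes, Isg20 and Tap1. Of all genes 5.71% did so, so this count does not stand out. Isg20 lay at 6.89, 6.83 and 6.73, a change of 0.47 ± 0.13 (adjusted p = 0.107). Tap1 lay at 9.04, 8.99 and 8.65, a change of 0.54 ± 0.17 (adjusted p = 0.159), as large as at 994.6 mg/kg. Psmb9 lay at 10.14, 10.03 and 9.38 (0.57 ± 0.25, adjusted p = 0.367), Psmb8 at 10.94, 10.95 and 9.74 and Tap2 at 8.37, 8.34 and 7.90, each with replicate 3 within the control range. Usp18 and Ifit3 changed by 0.63 ± 0.29 and 0.62 ± 0.24, with adjusted p = 0.376 and 0.283.

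The arrays that were high for Psmb8, Psmb9 and Tap2 at 497.3 mg/kg also differed in MHC class II genes, which were picked after their values were seen. RT1-Ba lay at 6.11 and 5.48 in replicates 1 and 2 of 497.3 mg/kg and at 5.92 in replicate 2 of 248.6 mg/kg, against 9.51 to 11.4 in the other 17 arrays. RT1-Bb lay at 8.03 and 10.03 in the same arrays of 497.3 mg/kg and at 9.28 in that of 248.6 mg/kg. It was also high, at 9.61, in replicate 2 of 62.3 mg/kg and lowest, at 4.56, in control replicate 2, and the other control arrays ran from 5.39 to 8.71. In replicate 2 of 248.6 mg/kg, Psmb8 was at 10.87 and Psmb9 at 9.89, above the other arrays of that dose. In replicate 1 of 994.6 mg/kg Psmb8 was at 10.94 and Psmb9 at 10.77 with RT1-Ba at 11.24 and RT1-Bb at 4.60. Tap2, Psmb8, Tap1 and Psmb9 lie next to each other on chromosome 20 in the RefSeq order of genes, 4 in a row. The part of whatever sets RT1-Ba and RT1-Bb apart in these values was not tested.

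At 62.3, 124.5 and 248.6 mg/kg no listed gene was called by limma (0 of 37 at each dose, against 0, 0.00703% and 0.0563% of all genes). At an unadjusted p under 0.05, 1, 1 and 0 genes were higher and 0 lower. Of all genes 1.34%, 3.36% and 4.03% were higher and 1.12%, 1.69% and 2.62% lower at that threshold, so these counts do not stand out. The median changes were 0.14, 0.11 and 0.01, and 30, 25 and 19 of 37 changes were above 0. In none of the 37 genes did all arrays of any of these doses lie above control, which 1.44%, 2.24% and 4.25% of all genes did. Rats of the same dose differed among themselves. At 62.3 mg/kg, 19 of 37 genes were above all controls in replicate 2, 2 in replicate 1 and 0 in replicate 3, where 27.5%, 18.1% and 14.7% of all genes were. At 497.3 mg/kg the counts in replicates 2, 1 and 3 were 22, 9 and 5, against 28.1%, 24.2% and 19% of all genes, so replicate 1 was near the share of all genes and replicate 3 below it. At 994.6 mg/kg they were 31, 28 and 25 in replicates 1 to 3, so that group was high in each rat, where 30.5%, 20% and 20.8% of all genes lay above all controls.

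Compared with 497.3 mg/kg, 994.6 mg/kg gave no called gene of the 37 (limma, against 0.0211% of all genes), while 14 were higher and 0 lower at an unadjusted p under 0.05. At that threshold 3.11% of all genes were higher and 4.5% lower. The changes were above 0 in 33 of 37 (median 0.37), and in 16 of 37 the groups did not overlap, against 3.92% of all genes with all arrays above. Herc6 (1.18 ± 0.30), Mx1 (1.13 ± 0.35), Oas1a (1.10 ± 0.38), Isg15 (1.08 ± 0.28) and Usp18 (1.003 ± 0.32) had the largest of these differences, with adjusted p from 0.249 to 0.505. The difference for Tap1 between these doses was -0.0098 ± 0.19. This comparison shares its arrays of 994.6 mg/kg with the comparison against control.

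As a trend over the 6 groups, with the dose counted in steps from 0 to 5, 9 of 37 genes rose and 0 fell, while 6.47% of all genes were called, 3.90% as higher and 2.57% as lower. These were Isg20 (slope 0.12 ± 0.023 log2 per step, adjusted p = 0.0037), Usp18 (0.25 ± 0.058, adjusted p = 0.0123), Ifi27, Parp9, Ifit3, Dhx58, Parp14, Tap1 and Psmb9. Tap1 (0.11 ± 0.032, adjusted p = 0.0414) and Psmb9 (0.15 ± 0.045, adjusted p = 0.0456) were called here and not at 994.6 mg/kg. Isg15 and Mx1 were called at 994.6 mg/kg and not in the trend (adjusted p = 0.0644 and 0.0627). The trend count changed when arrays were left out: 2 genes were called without control replicate 2 and 15 without replicate 3 of 497.3 mg/kg. Fewer arrays also weaken the test, so a lost call does not by itself show what the trend rested on. Over the 15 treated arrays alone 0 were called, with 18 at an unadjusted p under 0.05. No share of all genes over those arrays is given here, so these counts are not read as particular to the listed genes.

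The other genes of the pathway were taken from further lists. Of 12 interferon genes listed, 3 were measured, and 0 were called at 994.6 mg/kg by limma or had an unadjusted p under 0.05. Ifng lay at 3.64, 3.64, 3.73, 3.81 and 3.71 in control and at 3.70, 3.64 and 3.94 at 994.6 mg/kg, near the low end of the scale, which starts at 2.74. Of 10 measured receptors and kinases 1 rose: Ifnar2, a chain of the type I receptor, by 0.55 ± 0.15 (adjusted p = 0.0468), and 0.40 without replicate 1, when it was not called. It was not called with the GAPDH covariate either (adjusted p = 0.0564), and 2.50% of all genes were called higher and 1.96% lower in this comparison. Of 10 measured genes that lead to interferon production 1 fell: Irf3, the factor downstream of RIG-I, by -0.56 ± 0.14 (adjusted p = 0.0259), and -0.44 without replicate 1, when it was not called. With the GAPDH covariate Irf3 changed by -0.38 (adjusted p = 0.131). Of 7 feedback inhibitors 1 rose, Tnfaip3, which restrains NF-κB and is also an NF-κB target. Tnfaip3 lay at 6.65, 6.85, 6.84, 7.25 and 6.995 in control, at 7.89, 8.16 and 8.58 at 497.3 mg/kg and at 8.21, 8.40 and 7.62 at 994.6 mg/kg, and its change of 1.16 ± 0.17 kept its call without replicate 1 (adjusted p = 0.00711).

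Of 42 measured genes in a list of other interferon-induced genes, 14 rose and 0 fell at 994.6 mg/kg, where 2.50% of all genes rose, and the median change was 0.42. The death ligand gene Tnfsf10 (1.38 ± 0.26), the chaperone gene Rtp4 (1.32 ± 0.26), the inflammatory caspase gene Casp4 (1.32 ± 0.17) and the GTPase gene Irgm (1.22 ± 0.25) had the largest changes. Without replicate 1, 3 of the 42 were called. Their mean deviation from control was, as for the 37 genes, lowest in control replicate 2 and highest in replicate 1 of 994.6 mg/kg. Of 13 measured class I presentation genes 4 rose: the class I heavy chain RT1-S3 (0.73 ± 0.15), the peptide-loading factor Tapbp (0.45 ± 0.087) and the proteasome activator subunits Psme2 (0.41 ± 0.10) and Psme1 (0.39 ± 0.076). Without replicate 1 only 1 was called. The constitutive catalytic subunits Psmb5 (0.12 ± 0.071) and Psmb7 (0.27 ± 0.15), which the immunoproteasome subunits replace, were not called, nor was any of 8 class II genes.

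Markers of cell types that a liver piece can hold were read beside these counts, and for each list the share of all genes called was 2.50% higher and 1.96% lower. Of 9 Kupffer cell and macrophage markers none was called at 994.6 mg/kg, and their mean deviation from the control mean ran from -0.39 to 0.17 in control arrays and from 0.0001 to 0.24 at 994.6 mg/kg. It was lowest in control replicate 2 and highest in replicate 2 of 62.3 mg/kg (0.46), arrays in which the 37 genes deviated by -0.35 and 0.37. The part of macrophage content in the differences between rats was not tested. Of 10 T cell markers none was called, and their mean deviation ran from -0.14 to -0.03 at 994.6 mg/kg, within or below the control range of -0.05 to 0.04. None of 10 NK and cytotoxic cell, 4 B and plasma cell or 7 neutrophil markers was called. Of 7 monocyte and dendritic cell markers 1 rose, Ly6c, by 0.97 ± 0.21 (adjusted p = 0.0115). It was not called without replicate 1 (0.80, adjusted p = 0.105). The mean deviation of that list, which includes Ly6c, was 0.12 to 0.23 at 994.6 mg/kg against -0.17 to 0.09 in control. Only 4 of its 7 changes were above 0, with a median of 0.051 and a lowest of -0.086, so the list as a whole is not read as raised. Of 9 hepatocyte markers, which check the labelled tissue, 0 were called. Apoa1, the apolipoprotein A-I gene made by hepatocytes, averaged 14.2 in control, near the top of the scale at 15.36. Of 4 biliary markers Epcam rose by 0.69 ± 0.14, and 0 of 6 endothelial and 0 of 8 stellate cell markers were called. At an unadjusted p under 0.05 (limma), 2 hepatocyte, 1 endothelial and 1 stellate cell markers were lower, against 8.6% of all genes, and 0 of the macrophage, T cell, NK, B cell, neutrophil and class II genes were lower or higher.

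**Figure D4:**
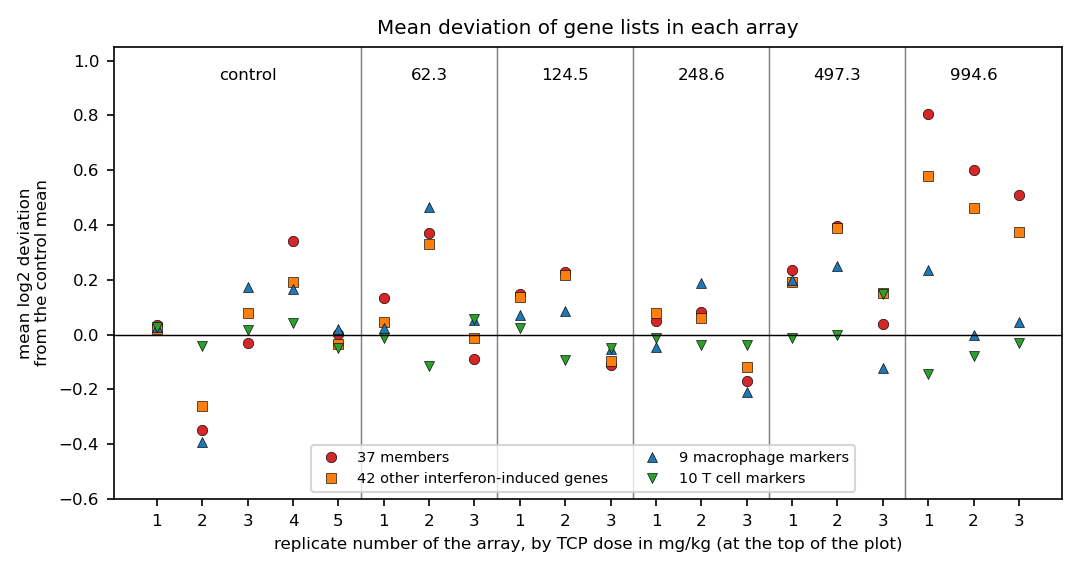
Mean log2 deviation from the control mean (vertical axis) in each of the 20 arrays (horizontal axis, by TCP dose in mg/kg) for the 37 listed genes, 42 other interferon-induced genes, 9 macrophage markers and 10 T cell markers. The 37 genes run from 0.51 to 0.80 at 994.6 mg/kg, above the 0.40 of replicate 2 at 497.3 mg/kg and the 0.34 of control replicate 4, and the macrophage markers share the low point of control replicate 2.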

How the data were processed

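The 20 arrays were grouped by the dose in their titles. The authors deposited log2 values, for which the submitters' processing notes name RMA without a version. The genome build and the set of arrays that RMA normalized jointly are not given in the sources used here. Array medians were 6.31 to 6.41, as RMA evens out the distributions, and each change is therefore read against most other genes. Precision is limited by the number of arrays. Of 31099 probe sets, 57 were controls, 20826 had 1 gene symbol in the annotation, 436 had several and 9780 had none here. Current symbols came by gene identifier for 20758, by accession for 2, and 66 kept the older one. The probe set with the highest mean stood for each of 14217 genes, with no filter on low values, and 7 listed genes had more than 1 probe set.

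A mean per group was fitted to all genes and arrays with limma 3.58.1 in R 4.3.3 (lmFit, contrasts.fit, eBayes; 14 residual and 4.77 prior degrees of freedom), and calls were made at an adjusted p (Benjamini-Hochberg, over all genes of a comparison) under 0.05. The fit was tested on simulated data with known log2 changes at 994.6 mg/kg and independent noise. Of 50 changes each, 2 were recovered at 0.25, 28 at 0.5, 50 at 1 and 46 at -1, with 5 false calls. The simulation held no array that stood apart, so it cannot decide how far such arrays affect the calls. The genes, lists and promoter motifs were chosen with earlier results of these data known, so their counts are descriptions. Values per array are given for called genes, the gene with the largest change of each role and the immunoproteasome and TAP genes, and from other lists up to 4 called genes or the 2 with the largest change. Alternatives covered normalization, probe set choice, a filter, eBayes options, array weights, a replicate block, the groups fitted, the dose scale and each left-out array. The counts and genes of the other lists, trend genes and 497.3 mg/kg under these settings were added after the data were seen. Promoter sequences are RefSeq's, build GRCr8. The labels put separate rats in each group.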

Additional observations from a re-analysis of the deposited data

Results flagged for a closer look

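Each of the 37 genes was searched for a control array whose gap to its nearest neighbour exceeded 0.71 of the range of the 5 control arrays (Dixon's 95% limit), which chance gives in about 1 in 20 groups. It was exceeded in 4 genes, each time by control replicate 2 at the low end. Psmb8 lay at 9.34 in that array against 10.2 in the next lowest control. Psmb9 lay at 8.73 against 9.37, Tap1 at 7.76 against 8.39 and Tap2 at 7.78 against 8.02. These 4 genes are neighbours on chromosome 20, so they are not independent cases. The macrophage markers were also lowest in this array among the controls, and their part was not tested.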

How the results depend on the processing

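At 994.6 mg/kg the count of called genes, 17 as reported, was 17 with quantile normalization (16 of them shared), 18 with median centring, 18 with a gene's probe sets averaged, 14 with the most variable probe set (13 shared), 16 with trend and robust eBayes, and 13 without the lower 50% of genes, where 27 were tested. It moved further to 26 with array weights, which also called 1 gene at 497.3 mg/kg and 2 between 994.6 and 497.3 mg/kg, to 9 with the GAPDH covariate and to 10 with only the groups compared. The shares of all genes called under the settings in this paragraph are not given here, so a shift need not be particular to the listed genes. Its cause was not tested. The trend count of 9 went to 4 with the covariate, 19 with dose in mg/kg and 0 over treated arrays only. Left-out arrays gave 3 to 19 calls at 994.6 mg/kg, 2 to 15 in the trend and 0 in each other comparison. With the replicate number as a block (control replicates 4 and 5 left out) 15 genes were called at 994.6 mg/kg and 11 in the trend. Of 15 pairs each, 3, 6 and 7 of arrays numbered 1, 2 and 3 had residual correlations over 0.1, and 12 of 18 arrays correlated best with their own number, a hint from the data and not the design, so the numbers were not taken as pairs. Changes near 0 turned sign: Stat2 (-0.031 with quantile normalization, -0.014 to 0.070 over left-out arrays), Ifih1 (-0.021 with the covariate), Gbp4 (-0.069 with array weights), Rsad2 (-0.019 with quantile normalization, -0.00063 with median centring, -0.28 to 0.22 over left-out arrays), Ifit1 (-0.17 to 0.0091) and Trim25 (-0.32 to 0.70), the last pair over left-out arrays. With 3 rats a dose the test misses many small changes, so a gene not called may have changed.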

Other observations

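Rats with the same replicate number often stood in the same order in the dose groups below the top dose. Replicate 2 was the highest array for 28, 24, 18 and 23 of the 37 genes at 62.3, 124.5, 248.6 and 497.3 mg/kg, and replicate 3 was the lowest for 25, 29, 24 and 26. At 994.6 mg/kg replicate 1 was the highest for 26, replicate 2 the lowest for 21. In the control group replicate 2 was the lowest for 26 and replicate 4 the highest for 25. The order was noticed after the values were seen and was not tested. The shares of all genes in this order are not given here, so it is not read as particular to the listed genes. Replicate 2 of 124.5 mg/kg and replicate 1 of 994.6 mg/kg were also the highest of the 20 arrays for 16.1% and 15.6% of all genes.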
